A study of Danio rerio with 18 samples.

Results

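Zebrafish larvae held at the highest and the lowest concentration of bisphenol A used on the arrays were compared directly, 4500 µg/L against 500 µg/L, without the vehicle larvae entering the fit. The comparison takes every array of both groups, 4 arrays at 4500 µg/L and 5 arrays at 500 µg/L, which are 9 of the 18 samples of the series. It covers all 22980 probes of the array.

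Bisphenol A (BPA) is an industrial chemical that binds estrogen receptors, and it is studied as an endocrine disruptor. In fish, estrogen receptors are known for driving the vitellogenin genes of the liver, which encode egg yolk precursors. By 7 days a zebrafish larva has working muscle, heart, eyes, liver and gut, and has largely used up its yolk.

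Developing wild-type zebrafish were kept at 4500 or 500 µg/L BPA in egg water with 0.05% ethanol for 7 days, starting at 3 h after fertilization. Each array carried RNA of pooled whole larvae labelled with Cy5 and a common reference, RNA of whole adult fish pooled at 9 parts male to 1 part female, labelled with Cy3. Values are log2 ratios of larval over adult signal, not levels, and log2 fold changes are mean ratios at 4500 µg/L minus mean ratios at 500 µg/L. Pools are called biological replicates in the labels, larvae within a pool cannot be separated, and p-values measure the spread between arrays. In RNA of whole larvae, fewer cells of a type and less RNA per cell cannot be told apart.

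The 4 arrays at 4500 µg/L did not behave as 1 group. On kept ratios, the log2 ratios of replicates 1, 2 and 3 correlated with one another across probes at 0.41 to 0.62. With the 500 µg/L arrays they correlated at 0.12 to 0.47 over 15 pairs, so these ranges overlap. Replicate 3 correlated with replicate 1 at 0.41, within its own range with the 500 µg/L arrays (0.36 to 0.47). Replicate 4 at 4500 µg/L correlated with the 500 µg/L arrays at 0.54 to 0.83 over 5 pairs and with the other 4500 µg/L arrays at 0.19 to 0.46 over 3 pairs. The 500 µg/L arrays correlated with one another at 0.55 to 0.86. All these correlations are descriptions across probes, which share the adult reference.

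The first principal component of the 3930 probes with a value on all 9 arrays held 42.1% of the variance. Replicates 1, 2 and 3 at 4500 µg/L scored 27.5, 29.1 and 23.1 on it, and replicate 4 scored -14.4, while the 500 µg/L arrays lay between -21.2 and -1.6. Replicate 4 is used under its label throughout, and values without it are given for the probes that it moves most.

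**Figure D1:**
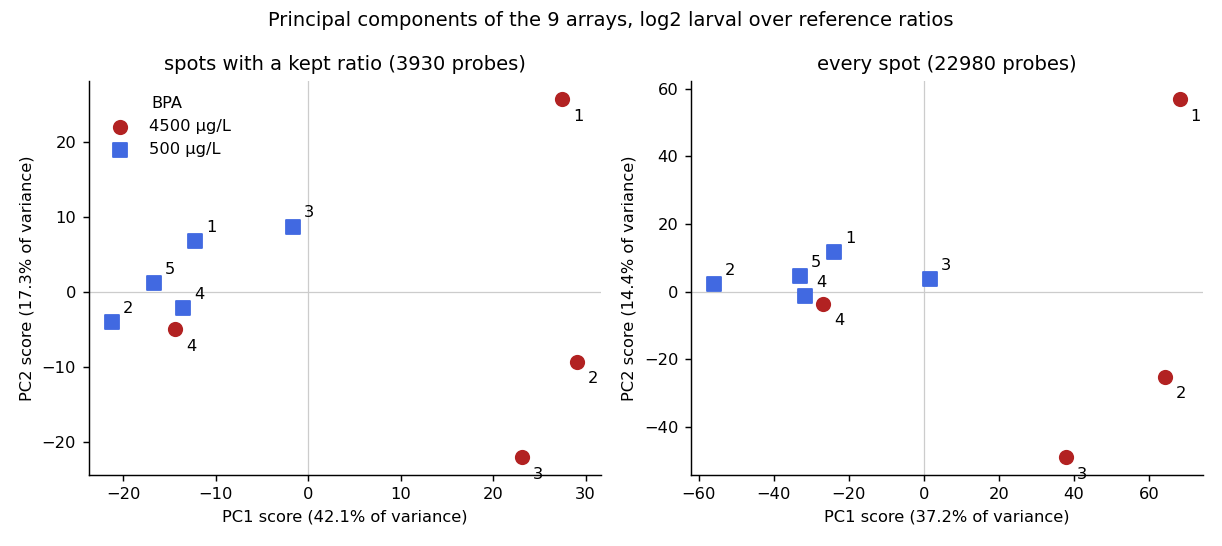
The first and second principal component of the log2 ratios on kept ratios (left) and with every spot (right), each axis with its share of the variance, for the 4 arrays at 4500 µg/L and the 5 arrays at 500 µg/L. Replicate 4 at 4500 µg/L lies at -14.4 on the first component of the kept ratios, among the 500 µg/L arrays (-21.2 to -1.6), and the other 4500 µg/L arrays lie between 23.1 and 29.1.

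Scanner readings differed between the arrays as well. The median Cy3 background was 243, 110, 111 and 162 units on the 4500 µg/L arrays 1 to 4, and 162 to 218 units on the 500 µg/L arrays. The median Cy5 background was 312, 274, 249 and 197 units on the 4500 µg/L arrays 1 to 4, against 153 to 216 units on the 500 µg/L arrays. The higher Cy5 background therefore goes with the same arrays that stand apart on the first component, and its part in the results was not tested. The study's authors kept a ratio for 9476 to 19719 of the 23232 spots per array at 4500 µg/L and for 7411 to 16485 at 500 µg/L.

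Gene names come from the array's annotation, and the data limit how far they can be read. For 310 genes with 2 probes among the kept ratios, the log2 fold changes of both probes correlated at r = -0.02 across genes, and for 1468 genes with 2 probes among all spots at r = -0.04. Mean log2 intensities of such pairs correlated at 0.04 in both sets. Where exactly 1 probe of a gene differed at an unadjusted p under 0.05 on kept ratios, 65 of the 129 other probes of that gene had the same sign (50.4%). Spots that repeat a single oligonucleotide read alike for most of the repeated probes, but not for all. The 186 spots of actb2, a cytoplasmic actin, had a standard deviation of 0.34 in log2 intensity, against 1.08 over all spots. It was 0.23 for gapdh, 0.21 for vtg3 and 0.16 for cxcr4a, but 0.94 for the 15 spots of ccnd1. Each gene below is therefore the probe annotated with that name, and where other probes of a name that differs here were measured, their values are given for the leading genes.

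In both fits described here, on kept ratios and with every spot, no single probe passed an adjusted p of 0.05 with all 9 arrays. Many differed at an unadjusted p. Some other settings with all 9 arrays gave calls, at most 112, and are given at the end. On kept ratios, 8578 probes had at least 3 values in both groups. With limma, 0 of them (0.0%) passed, the lowest adjusted p was 0.095, and Student's t-test and limma-trend also called 0. At an unadjusted p under 0.05, 771 probes were higher at 4500 µg/L (8.99%) and 811 lower (9.45%). This balance depends on the normalization, since median centring in place of loess gave 568 higher and 1254 lower. The median log2 fold change over all tested probes was -0.02 and the median standard error 0.30.

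With every spot used, kept or not, 0 of 22980 probes passed (0.0%) and the lowest adjusted p was 0.088. Probes named from this fit can rest largely on spots for which the authors kept no ratio. In that fit 2443 probes were higher at 4500 µg/L (10.6%) and 1577 lower (6.86%) at the same unadjusted threshold. Student's t-test called 0 there too, and limma-trend called 1. On the 3930 probes with a kept ratio on all 9 arrays, all 4 arrays at 4500 µg/L lay above all 5 arrays at 500 µg/L for 75 probes (1.91%) and below them for 164 probes (4.17%). With every spot those counts were 720 above (3.13%) and 502 below (2.18%).

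Leaving out replicate 4 at 4500 µg/L changed this outcome, and leaving out any other single array did not. Without it, 725 of 6692 probes on kept ratios passed an adjusted p of 0.05, 312 higher at 4500 µg/L (4.66%) and 413 lower (6.17%). With every spot, 1720 of 22980 probes passed, 1113 higher (4.84%) and 607 lower (2.64%). Both fits called 583 of these probes, which is 80.4% of the calls on kept ratios and 33.9% of the calls with every spot. Without any other single array, between 0 and 1 probes passed in either fit. Attention to replicate 4 came from these same ratios, on which it read most like the arrays of the other concentration. Leaving out such an array lowers the spread within its group and tends to widen the difference between groups. Adjusted p-values without replicate 4, here and for single probes and lists below, are therefore descriptions and not valid tests.

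The result with replicate 4 left out rests on 3 arrays, of which replicates 2 and 3 have the low Cy3 background. Without these low-background arrays, 0 of 7556 probes on kept ratios passed, with 308 higher and 298 lower at an unadjusted p under 0.05, and only replicates 1 and 4 remained at 4500 µg/L. In that fit the counts were about as large in one direction as in the other. With a block for a Cy3 background under 150 units in a fit over all 4 groups of larvae, 0 of 3878 probes on kept ratios passed, with 81 higher and 352 lower at the unadjusted threshold. With every spot 0 of 22980 passed in that fit, with 1246 higher and 914 lower.

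**Figure D2:**
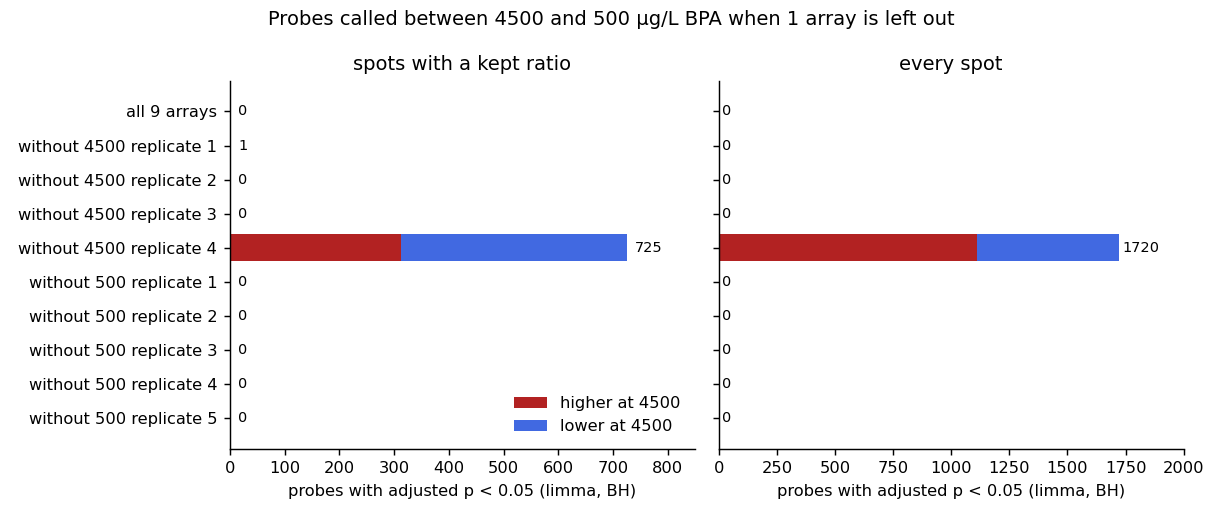
Number of probes with an adjusted p under 0.05 (limma) with all 9 arrays and with each array left out in turn, split into higher and lower at 4500 µg/L, on kept ratios and with every spot. Calls reach 725 and 1720 without replicate 4 at 4500 µg/L and are at most 1 in each of the other fits. Because replicate 4 was singled out on the same ratios, the calls without it are descriptions only.

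The probes that differed were not spread evenly over the brightness range. The probes on kept ratios were split into 5 equal groups by mean log2 intensity. In the dimmest group 20.3% were higher at 4500 µg/L and 3.67% lower at an unadjusted p under 0.05. In the brightest group 4.37% were higher and 14.0% lower. Split likewise, every spot gave a dimmest group with 11.2% higher and 2.02% lower, and the brightest 5.55% higher and 13.2% lower. A correction of each array for the mean intensity of the probes, chosen after seeing the data, gave 880 higher and 650 lower on kept ratios.

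The direction also followed what the probe read in vehicle larvae, whose arrays took no part in the comparison. The 475 probes on kept ratios with a mean log2 ratio of -1.5 or less in vehicle larvae are those whose larval signal was far below that of adult fish. Of these, 227 were higher at 4500 µg/L than at 500 µg/L at an unadjusted p under 0.05 (47.8%) and 0 were lower. The median of their mean log2 ratios came to -0.84 in larvae at 4500 µg/L and to -1.70 in larvae at 500 µg/L, so the larval signal at 4500 µg/L lay nearer to that of the adult reference. Within the 4500 µg/L group the median was -0.48 for replicates 1 to 3 and -1.76 for replicate 4.

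Probes near equality in vehicle larvae leaned the other way. Of 5640 probes between -0.5 and 0.5 there, 258 were higher at 4500 µg/L (4.57%) and 686 lower (12.2%), with a median log2 fold change of -0.13. Among the 1170 probes above 0.5 in vehicle larvae, those with more signal in larvae than in adults, 42 were higher and 46 lower, with a median of 0.00. With every spot, 620 of 1003 probes at -1.5 or less were higher (61.8%) and 0 lower.

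**Figure D3:**
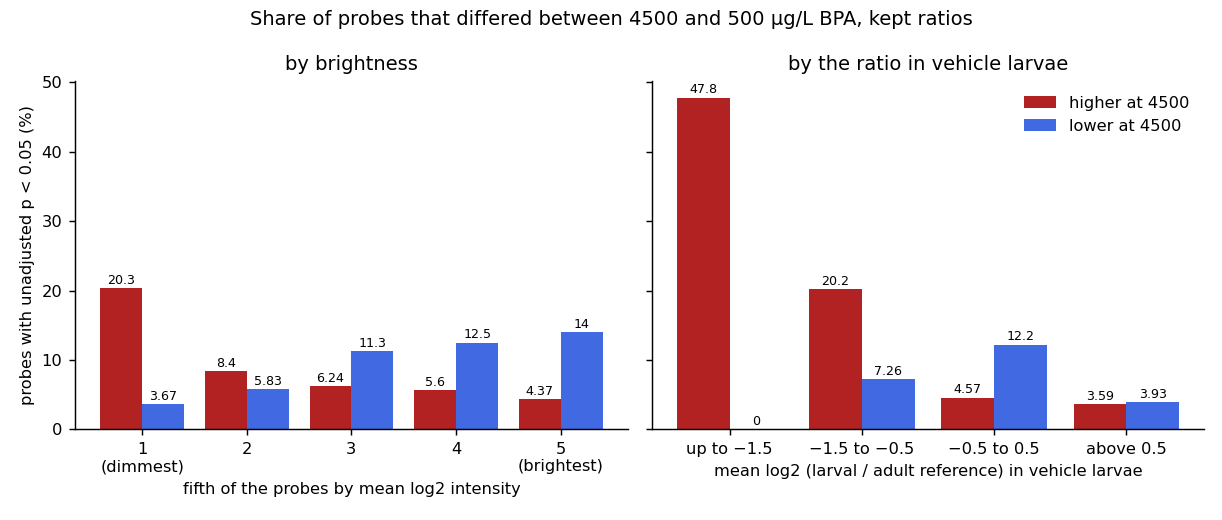
Share of probes on kept ratios with an unadjusted p under 0.05 (limma), higher or lower at 4500 than at 500 µg/L, in 5 equal groups by mean log2 intensity (left) and by the mean log2 ratio in vehicle larvae (right). The share that was higher is 47.8% among probes at -1.5 or less in vehicle larvae and 3.59% among those above 0.5.

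Leading probes were taken among those with a symbol. Of the 10 that led among those higher at 4500 µg/L on kept ratios, 9 had a mean below 0 in vehicle larvae, 4 of them at -1.5 or less. All 10 that led among those lower were within 0.5 of 0 there. The probe annotated as nr3c1, the glucocorticoid receptor, had the lowest adjusted p of the probes with a symbol on kept ratios. Its log2 ratios were -0.64, -0.88, -0.80 and -1.44 at 4500 µg/L, against -2.05, -2.53, -2.68 and -2.66 on the 4 arrays with a value at 500 µg/L. Among arrays with a kept ratio, all at 4500 µg/L lay above all at 500 µg/L, and replicate 4 at 4500 µg/L was the nearest to them. Its log2 fold change stood at 1.54 (standard error 0.27, adjusted p = 0.095 from limma) and 1.71 without replicate 4 (adjusted p = 0.0081). With every spot, which adds replicate 4 at 500 µg/L, this probe gave 1.13 (standard error 0.40). The separation of the groups is therefore given for kept ratios only. The other probes named nr3c1 gave 0.33 and 0.02 with every spot.

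Among the leading probes with positive differences were klhl31, desma, pvalb9 and cmya5, grouped here by their names after their values were seen. None of them passed the adjustment in these fits with all arrays. Muscle probes of the lists below pointed in both directions. On kept ratios klhl31, desma and pvalb9 were in the dimmest of the 5 intensity groups, where probes leaned higher as a whole. In vehicle larvae klhl31 averaged -2.2 on kept ratios and cmya5 -1.59 with every spot. Of all probes at -1.5 or less there, 47.8% were higher on kept ratios and 61.8% with every spot. The klhl31 probe, named for a kelch-like protein of muscle, read -0.61, -0.76 and -1.31 on 3 arrays at 4500 µg/L, against -2.02, -2.83, -2.19, -2.0 and -1.89 at 500 µg/L. The groups did not overlap, and the log2 fold change was 1.3 (standard error 0.29, adjusted p = 0.13 from limma). A further probe of the name gave 0.17 with every spot. The desma probe, for the muscle intermediate filament desmin, read 1.25, 0.86 and -0.10 on 3 arrays at 4500 µg/L, against -1.28, -0.89, -0.75 and -1.04 on 4 arrays at 500 µg/L. It differed by 1.66 on the log2 scale (standard error 0.33, adjusted p = 0.13), and with every spot 1.11, while a further desma probe gave -0.14.

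The probe of pvalb9, a parvalbumin that binds calcium, read 0.55, 0.57 and 0.81 at 4500 µg/L (replicates 1 to 3), against -0.89, -1.71, -0.63, -0.61 and -0.31 at 500 µg/L. All 3 values at 4500 µg/L were above 0 and all 5 at 500 µg/L below it. Its log2 fold change came to 1.47 (standard error 0.31), with an adjusted p of 0.13 beside all other probes and of 0.0099 in the fit without replicate 4, where this probe has no value. With every spot the cmya5 probe, named for the muscle protein myospryn, read 0.47, 0.21, 0.03 and -0.96 at 4500 µg/L, against -1.46, -2.13, -1.39, -1.71 and -1.65 at 500 µg/L. The groups did not overlap, with replicate 4 closest to the 500 µg/L arrays. For cmya5 the log2 fold change was 1.61 (standard error 0.29, adjusted p = 0.099 from limma) and 1.91 without replicate 4 (adjusted p = 0.012). The authors kept a cmya5 ratio on 2 arrays at 4500 µg/L and 4 at 500 µg/L.

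Other leading probes with positive differences were trdmt1, tbx16 and cbx8a. Probe trdmt1, for a methyltransferase that acts on tRNA, read 0.22, 0.64 and -0.63 at 4500 µg/L (replicates 1 to 3), against -1.72, -2.91, -1.13, -1.29 and -1.66 at 500 µg/L. Among arrays with a kept ratio, which leave out replicate 4 at 4500 µg/L, the groups did not overlap. The log2 fold change of trdmt1 was 1.82 (standard error 0.40, adjusted p = 0.13 from limma). The tbx16 probe, for a T-box transcription factor of the early mesoderm, read 1.26, 0.95 and 0.84 at 4500 µg/L (replicates 1 to 3) and -0.40, -0.25 and -0.62 on 3 arrays at 500 µg/L. For tbx16 the log2 fold change was 1.44 (standard error 0.29). With every spot the same probe gave 1.03, and 1.36 without replicate 4, and a further tbx16 probe gave 0.13. The cbx8a probe, for a Polycomb chromobox protein, was at 0.58, 0.30 and 0.17 at 4500 µg/L (replicates 1 to 3), against -0.76, -1.01, -0.74 and -0.75 on 4 arrays at 500 µg/L, with a log2 fold change of 1.17 (standard error 0.26). All 3 probes have adjusted p-values of 0.13 with all arrays, and of 0.011, 0.0092 and 0.012 in the fit that leaves out replicate 4, in the order given. None of them has a kept ratio on replicate 4 at 4500 µg/L, so their log2 fold changes are the same in both fits. With every spot, which includes that array, none of the 3 was among the 10 highest by t.

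Other leading probes on kept ratios were those of cldnd, a claudin of tight junctions, and trim8b, a TRIM family protein. Their log2 fold changes were 1.65 for cldnd and 1.76 for trim8b. For trim8b, replicate 4 read like the rest of its group, with 1.68, 1.1, 1.4 and 1.4 at 4500 µg/L, against -0.90, 0.48 and -0.68 on 3 arrays at 500 µg/L. The difference was 1.76 on the log2 scale with and without replicate 4 (standard error 0.34, adjusted p = 0.13 with it). In vehicle larvae, however, the trim8b probe read 1.9, -0.56 and -1.25 on 3 arrays, the first of them above every array at 4500 µg/L. By mean intensity it was in the dimmest of the 5 groups, where probes leaned higher as a whole.

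With every spot, ptpn18, a protein tyrosine phosphatase, had the lowest adjusted p of all 22980 probes. The authors kept its ratio on only 1 array at 4500 µg/L and 2 at 500 µg/L. By mean intensity it was in the dimmest of the 5 groups of probes. It read 0.12, 0.47, 0.37 and 0.25 at 4500 µg/L, against -1.47, -1.35, -1.43, -0.84 and -1.78 at 500 µg/L. The groups did not overlap, and replicate 4 lay within its own group. The log2 fold change was 1.68 (standard error 0.23, adjusted p = 0.088 from limma, exact permutation p = 0.016, the smallest that 4 against 5 arrays allow), and 1.69 without replicate 4. That permutation p follows from the lack of overlap, which 720 probes (3.13%) showed in this direction with every spot. Since ptpn18 was picked by its p on these arrays, the permutation p is no separate evidence.

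Next by p among the probes with a symbol stood zgc:77880. It read 0.11, 0.66, -0.22 and -0.39 at 4500 µg/L, against -1.42, -2.24, -1.48, -1.58 and -1.35 at 500 µg/L, without overlap. It differed by 1.65 on the log2 scale (standard error 0.27, adjusted p = 0.094), and by 1.79 without replicate 4 (adjusted p = 0.013). Other leading probes with every spot were those of pabpc1a, which binds the poly(A) tail of mRNA, cyb5d1, adh5l, cd81a and mmp23bb. The pabpc1a probe read 0.47, 1.09, 0.18 and -0.55 at 4500 µg/L, against -1.86, -1.33, -0.94, -1.45 and -1.46 at 500 µg/L, and its log2 fold change was 1.70 (standard error 0.31). For adh5l, an alcohol dehydrogenase family member, the values were 0.05, 0.05, -0.09 and -0.20 at 4500 µg/L and -1.04, -2.04, -1.02, -2.20 and -1.26 at 500 µg/L, with a log2 fold change of 1.47 (standard error 0.28). Both probes had no overlap between the groups and an adjusted p of 0.099. The cyb5d1 probe had a log2 fold change of 1.44, and that of the tetraspanin cd81a 1.4, where a further cd81a probe gave -0.18. For mmp23bb, a matrix metalloproteinase, it was 1.5 (standard error 0.28) and 1.66 without replicate 4. No probe of this paragraph had the 3 kept ratios per group needed for the fit on kept ratios. At 4500 µg/L the authors kept 0 ratios for pabpc1a and 1 each for zgc:77880, cd81a and mmp23bb.

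Leading probes with negative differences were named for a range of functions. The gabpa probe, for an ETS family transcription factor known to act on nuclear genes of mitochondrial proteins, read -1.16, -1.41, -1.69 and -0.42 at 4500 µg/L, against -0.09, -0.23, 0.07, 0.01 and -0.11 at 500 µg/L. The groups did not overlap, and replicate 4 lay nearest to the 500 µg/L arrays. Its log2 fold change was -1.1 (standard error 0.26, adjusted p = 0.13 from limma) and -1.35 without replicate 4 (adjusted p = 0.0082). The tmem11 probe, for a protein of the mitochondrial inner membrane, read -1.79, -1.49, -1.53 and -0.50 at 4500 µg/L, against -0.06, -0.31, -0.38, -0.19 and -0.31 at 500 µg/L. For tmem11 the log2 fold change was -1.08 (standard error 0.27) and -1.35 without replicate 4.

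The ehmt2 probe, for a methyltransferase of histone H3 lysine 9, read -1.3, -1.63, -1.16 and -0.40 at 4500 µg/L, against -0.20, -0.16, -0.06, 0.06 and 0.16 at 500 µg/L. The srrt probe, for a nuclear RNA-processing factor bound to the cap complex, read -1.4, -0.90, -0.94 and -0.66 at 4500 µg/L, against -0.33, 0.19 and values within 0.10 of zero on the other arrays at 500 µg/L. Neither probe had overlapping groups. Log2 fold changes were -1.08 for ehmt2 (standard error 0.26) and -0.96 for srrt (standard error 0.23), with adjusted p-values of 0.13 with all arrays and of 0.0082 for ehmt2 and 0.015 for srrt without replicate 4. A further srrt probe gave -0.18 with every spot.

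Further leading probes with negative differences were spred2b, thbs4b and ptprfb, each with an adjusted p of 0.13 from limma. The spred2b probe, for an inhibitor of the Ras and ERK pathway, read -0.97, -1.15, -1.52 and -0.21 at 4500 µg/L, against 0.61, 0.37, 0.26, 0.09 and 0.09 at 500 µg/L. All 4 arrays at 4500 µg/L were below 0 and all 5 at 500 µg/L above it. The spred2b fold change was -1.24 on the log2 scale (standard error 0.27, adjusted p = 0.13), and -1.5 without replicate 4 (adjusted p = 0.0081), while a further spred2b probe gave -0.18. The probe of thbs4b, a thrombospondin of the matrix between muscle and tendon, read -1.46, -1.08, -0.83 and -0.49 at 4500 µg/L, against 0.29, -0.26, 0.03, -0.04 and 0.45 at 500 µg/L. Its groups did not overlap and its log2 fold change was -1.06 (standard error 0.26). The ptprfb probe, for a receptor tyrosine phosphatase, read -1.17, -0.46 and -1.11 at 4500 µg/L (replicates 1 to 3), against 0.18, 0.18, 0.33, 0.25 and 0.46 at 500 µg/L, with a log2 fold change of -1.19 (standard error 0.26).

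With every spot the growth factor igf2b was among the leading lower probes. It read -1.29, -1.0, -0.84 and -0.43 at 4500 µg/L, against 0.21, -0.31, 0.21, 0.09 and 0.20 at 500 µg/L, without overlap. For igf2b the log2 fold change was -0.97 (standard error 0.23, adjusted p = 0.11), and -1.13 without replicate 4 (adjusted p = 0.018). The mpp1 probe, for a membrane scaffold protein, read -1.01, -2.04, -0.98 and -1.04 at 4500 µg/L, against -0.15, -0.51, 0.07, 0.70 and 0.53 at 500 µg/L, and here replicate 4 was among its own group. For mpp1 the log2 fold change was -1.4 (standard error 0.30, adjusted p = 0.10) and -1.47 without replicate 4, and its further probes gave 0.26 and -0.52. For the leading mpp1 probe the authors kept a ratio on 2 arrays at 4500 µg/L and on 0 at 500 µg/L. The fra10ac1 probe gave -1.02 (standard error 0.23) and -1.19 without replicate 4 (adjusted p = 0.016), and further probes of that name gave -0.29, 0.05 and 0.63.

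**Figure D4:**
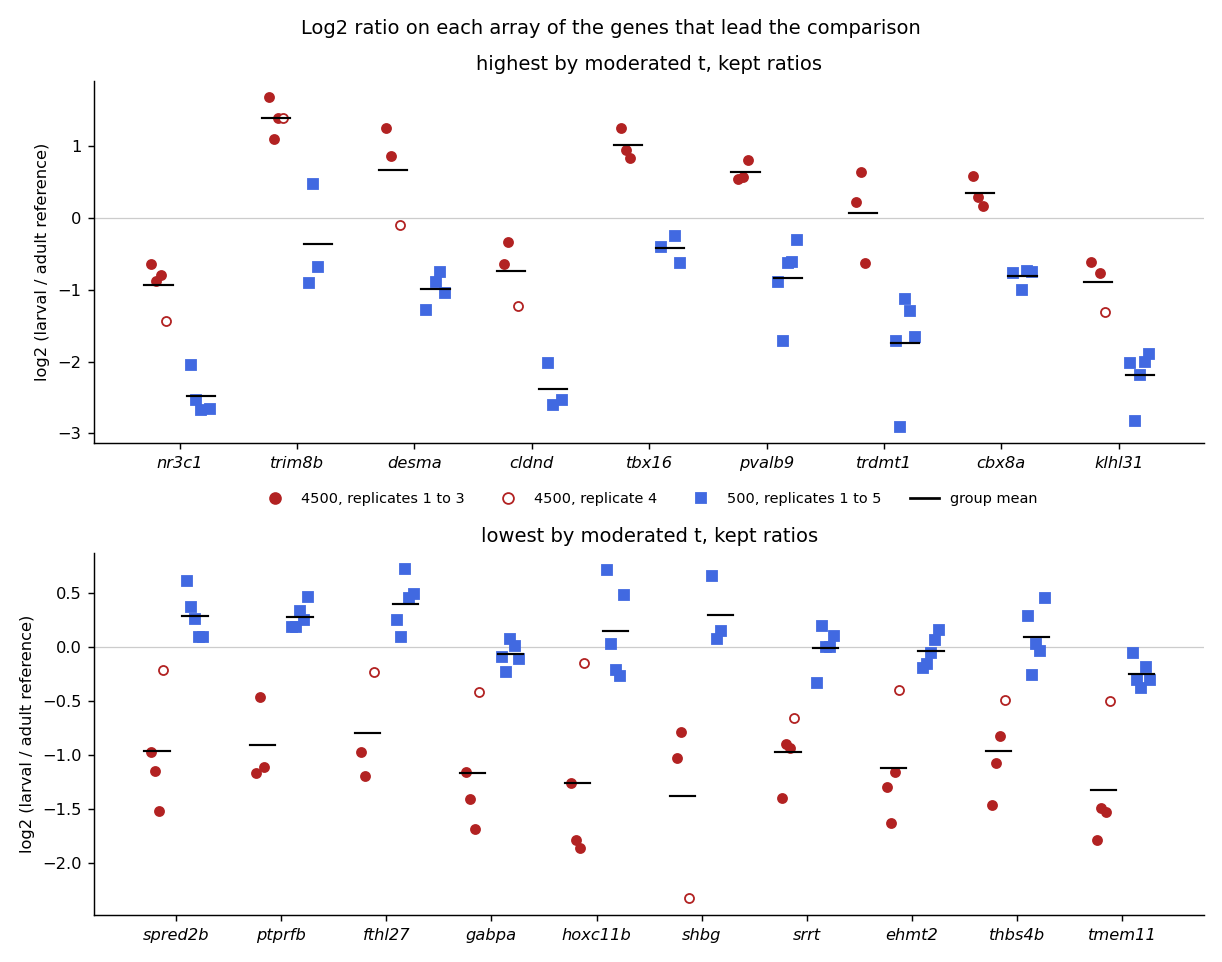
Log2 ratio of larval over adult reference signal on each array for leading probes with positive or negative differences on kept ratios, with bars at the group means. Replicate 4 at 4500 µg/L is drawn with its own marker and lies closer to the 500 µg/L arrays than the other 3 arrays for gabpa (-0.42), spred2b (-0.21) and nr3c1 (-1.44), but within its group for trim8b (1.4).

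Means in the other groups of larvae, given as a description and in order of concentration, did not follow the concentrations alike. The gabpa probe averaged -0.41 in vehicle larvae and -0.07 at 500 µg/L, beside -0.96 at 1500 µg/L and then -1.17 at 4500 µg/L. For tmem11 the means were -0.37 in vehicle larvae and -0.25 at 500 µg/L, beside -1.07 at 1500 µg/L and then -1.33 at 4500 µg/L. The 1500 µg/L arrays did not read alike. Replicate 2, with a Cy3 background of 171 units, gave -0.56 for gabpa and -0.38 for tmem11, and replicates 1 and 3, with 129 and 92 units, gave -1.03 and -1.28 for gabpa and -1.3 and -1.54 for tmem11. The nr3c1 probe stood at -2.12 in vehicle larvae, -2.48 at 500 µg/L and -2.38 at 1500 µg/L, then -0.94 at 4500 µg/L. Its vehicle arrays read -3.01, -2.44, -2.48 and -0.54, the last of them above every array at 4500 µg/L. With every spot ptpn18 averaged -1.37 in vehicle larvae and also at 500 µg/L, beside -0.28 at 1500 µg/L and then 0.30 at 4500 µg/L. Vehicle and 1500 µg/L means rest on at most 4 and 3 arrays, since repeated scans of an array were averaged.

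Estrogen-driven genes were examined through a list of 17 genes of the vitellogenin and estrogen response. On kept ratios, 0 of its 7 probes differed at an unadjusted p under 0.05, with a median log2 fold change of -0.07, against 8.99% higher and 9.45% lower and a median of -0.02 over all probes. With every spot, 2 of 14 probes were higher and 1 lower, against 10.6% higher and 6.86% lower over all probes. The median there was 0.07, against 0.04 over all probes.

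The probes that differed were those of vtg4 and vtg6 above and vtg2 below. For vtg6 the authors kept a ratio on 1 array at 4500 µg/L and 2 at 500 µg/L. For vtg4 and vtg2 they kept it on 2 arrays at 4500 µg/L and 3 at 500 µg/L. The vtg4 probe read 0.58, 0.46, 1.12 and -0.30 at 4500 µg/L, against -1.22, -1.48, -0.45, -0.30 and -0.54 at 500 µg/L, where replicate 4 met the highest value at 500 µg/L to 2 decimals. The vtg4 fold change was 1.26 on the log2 scale (standard error 0.32, adjusted p = 0.12 from limma), and 1.52 without replicate 4 (adjusted p = 0.018). The vtg6 probe read -0.45, 0.48, -0.12 and -0.09 at 4500 µg/L and -0.87, -0.77, -0.82, -1.23 and -1.07 at 500 µg/L, without overlap. The vtg6 fold change was 0.91 on the log2 scale (standard error 0.23, adjusted p = 0.12), and 0.92 without replicate 4 (adjusted p = 0.046).

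The other vitellogenin probes differed less or the other way. The vtg2 probe read -0.98, -0.40, -1.22 and 0.01 at 4500 µg/L, against -0.38, -0.14, 0.41, 0.25 and 0.20 at 500 µg/L, with overlap, and differed by -0.72 on the log2 scale (standard error 0.28, adjusted p = 0.22). For vtg3, the repeated spots averaged 0.01, 0.10, 0.00 and -0.15 at 4500 µg/L, against -0.50, -0.33, -0.54, -0.16 and -0.43 at 500 µg/L, without overlap. For vtg3 the log2 fold change was 0.38 (standard error 0.19, adjusted p = 0.32), 0.43 without replicate 4. On kept ratios the groups of vtg3 overlapped and the value was 0.24 (standard error 0.26, adjusted p = 0.62). The vtg7 probe gave -0.04 and the vtg5 probes 0.30 and 0.34, each with overlapping groups. In vehicle larvae vtg4 averaged -1.45 and vtg6 -0.63, against 0.46 for vtg4 and -0.05 for vtg6 at 4500 µg/L. Both means lie in a range of vehicle ratios where probes leaned higher as a whole. With every spot, 31.7% of the 2788 probes between -1.5 and -0.5 in vehicle larvae were higher at 4500 µg/L and 2.4% lower.

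Proteins that make or carry sex steroids were measured by 8 probes on kept ratios, of which 0 were higher and 2 lower at an unadjusted p under 0.05, with a median log2 fold change of -0.51. Over all probes 8.99% were higher and 9.45% lower, with a median of -0.02. The lower probes of this list were those of shbg, the sex hormone-binding globulin of plasma, and hsd17b10, a mitochondrial dehydrogenase. With every spot shbg read -1.03, -0.79, -0.37 and -2.33 at 4500 µg/L, against 0.66, 0.07, 0.15, 0.10 and 0.34 at 500 µg/L. The groups did not overlap, and replicate 4 was the lowest of all arrays. For shbg the log2 fold change was -1.39 (standard error 0.34, adjusted p = 0.11), -0.99 without replicate 4 (adjusted p = 0.031), and -0.18 for a further probe. For hsd17b10 it was -0.94 (standard error 0.35) and -1.32 without replicate 4, and a further probe gave -0.17. With every spot the list had 2 of 17 probes higher and 3 lower, against 10.6% higher and 6.86% lower over all probes. Its median there was -0.01, and the kept-ratio median rests on 8 probes.

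The thyroid list had only 3 probes on kept ratios, none of which had an unadjusted p under 0.05. Among all spots, 1 of 12 was higher, ttr, the thyroid hormone carrier transthyretin, and 1 lower, nkx2.4b, a transcription factor of the thyroid primordium. These counts stand beside 10.6% higher and 6.86% lower over all probes with every spot. The ttr probe read 0.95, 0.93, 0.31 and 0.27 at 4500 µg/L and -0.38, 0.09, -0.42, 0.16 and 0.28 at 500 µg/L, and its log2 fold change came to 0.66 (standard error 0.25, adjusted p = 0.21). The nkx2.4b probe gave -0.64 (standard error 0.25, adjusted p = 0.21). Both had overlapping groups. The authors kept no ttr ratio on any array of either group, and few of nkx2.4b (2 at 4500 µg/L and 1 at 500 µg/L).

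Ribosomal and mitochondrial proteins were each measured by a long list. Counts below are read against the 8.99% of all probes that were higher and the 9.45% that were lower at an unadjusted p under 0.05. Of 62 probes of cytosolic ribosomal proteins, 1 was higher and 11 lower, with 41 of the 62 below 0 and a median log2 fold change of -0.21, against -0.02 over all probes. The rpl6 probe, for a large-subunit protein, read -1.36, -1.10, -1.46 and -0.56 at 4500 µg/L, against 0.23, -0.38, -0.11, -0.41 and -0.03 at 500 µg/L. Its groups did not overlap and its log2 fold change was -0.98 (standard error 0.25, adjusted p = 0.13), while a further rpl6 probe gave 0.55. Log2 fold changes were -0.97 for rpl22 and -0.93 for rps14, and both probes overlapped because of replicate 4, at 0.18 for rpl22 and -0.21 for rps14. Without it the values were -1.35 for rpl22 (adjusted p = 0.0082) and -1.22 for rps14 (adjusted p = 0.0087). Without replicate 4, 7 of 51 ribosomal probes passed an adjusted p of 0.05 on the lower side and 1 on the higher. Ribosomal probes were bright, with a median log2 intensity of 9.15 against 8.94 over all probes, and bright probes leaned lower as a whole.

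Of 34 probes of oxidative phosphorylation, the respiratory chain and ATP synthase of mitochondria, 1 was higher and 8 lower, with a median of -0.23. The sdhb probe, for a subunit of succinate dehydrogenase, read -1.65, -1.54, -1.44 and -0.03 at 4500 µg/L, against -0.19, 0.09, -0.21, -0.23 and -0.22 at 500 µg/L. Replicates 1 to 3 lay more than 1 log2 unit below every array at 500 µg/L, and replicate 4 lay within the range of these. For sdhb the log2 fold change was -1.01 (standard error 0.31) and -1.39 without replicate 4 (adjusted p = 0.0081). The atp5pf probe, for a subunit of ATP synthase, had no overlap and a log2 fold change of -0.76 (standard error 0.24). The atp5f1b probe gave -1.29 (standard error 0.38) and -1.68 without replicate 4 (adjusted p = 0.0089), and a further probe of that name gave 0.50 with every spot. With every spot, 4 of 86 probes of the list were higher and 12 lower, with a median of -0.03. Over all probes with every spot, 10.6% were higher and 6.86% lower.

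Enzymes of fatty acid and ketone use had 1 of 15 probes higher and 2 lower, with a median of -0.21. The acaa1 probe, for a thiolase, read -0.50, -0.20, -0.40 and -0.33 at 4500 µg/L, against 0.46, 0.50, 0.45, 0.01 and 0.17 at 500 µg/L, and differed by -0.68 on the log2 scale (standard error 0.22, adjusted p = 0.16). Replicate 4 read like its group here, and the value without it was -0.69. The oxct1a probe, for a ketone-body enzyme, gave -1.13 and -1.44 without replicate 4 (adjusted p = 0.0082), and a further oxct1a probe gave 0.84 with every spot. The etfdh probe, for an electron carrier dehydrogenase of the inner membrane, was higher by 0.57.

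All 6 probes of glial genes on kept ratios lay below 0, with a median of -0.57. Of these, 3 were lower at an unadjusted p under 0.05, against 9.45% of all probes. Of the 5 glial probes with a kept ratio on all 9 arrays, 3 lay lower without overlap, against 4.17% of all such probes. They are the same 3 probes, so the lack of overlap is no separate evidence. Glial probes were bright, with a median log2 intensity of 10.03 against 8.94 over all probes, and bright probes leaned lower as a whole. The slc1a2b probe, for a glial glutamate transporter, read -0.85, -1.46, -1.51 and -0.70 at 4500 µg/L, against 0.42, -0.02, -0.36, -0.60 and -0.01 at 500 µg/L. Its log2 fold change was -1.02 (standard error 0.27, adjusted p = 0.13 from limma) and -1.16 without replicate 4 (adjusted p = 0.019), but -0.66 without the low-background arrays. The gfap probe, for the intermediate filament of astroglia, read -0.79, -0.45, -0.67 and -0.33 at 4500 µg/L, against 0.31, -0.03, -0.02, -0.02 and 0.33 at 500 µg/L. The gfap fold change was -0.68 on the log2 scale (standard error 0.22, adjusted p = 0.16), with -0.75 without replicate 4 (adjusted p = 0.049) and -0.67 without the low-background arrays.

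The fabp7a probe, for a fatty acid-binding protein of radial glia, read -0.97, -0.67, -0.78 and -1.03 at 4500 µg/L, against 0.01, -0.44, -0.58, -0.25 and -0.34 at 500 µg/L. For fabp7a the log2 fold change was -0.54 (standard error 0.22, adjusted p = 0.22), and replicate 4 was the lowest array. The related fabp7b went the other way with every spot, at 0.41, 0.34, 0.26 and -0.31 at 4500 µg/L and -1.19, -1.29, -0.79, -0.75 and -1.24 at 500 µg/L. For fabp7b the log2 fold change was 1.23 (standard error 0.23, adjusted p = 0.099). The authors kept a fabp7b ratio on 2 arrays at 4500 µg/L and 3 at 500 µg/L. Over all 18 glial probes with every spot, 14 lay below 0, 1 was higher and 4 lower, with a median of -0.15. The shares over all probes there were 10.6% higher and 6.86% lower. Other slc1a2b and gfap probes gave 0.24, -0.23 and -0.04.

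Genes of the cell cycle and of DNA replication leaned higher. Of 33 probes on kept ratios, 7 were higher and 1 lower, against 8.99% higher and 9.45% lower over all probes. Of the 33 probes, 21 lay above 0, with a median of 0.17. With every spot 15 of 83 were higher and 4 lower, against 10.6% and 6.86% over all probes, with a median of 0.12. The cdk1 probe, for the kinase that starts mitosis, read -0.91, -0.54, -1.43 and -2.34 at 4500 µg/L, against -1.85, -2.20, -2.14, -2.55 and -2.55 at 500 µg/L. Replicate 4 lay within the range at 500 µg/L and the other arrays above it. For cdk1 the log2 fold change was 0.95 (standard error 0.33), and 1.3 without replicate 4 (adjusted p = 0.011). The rfc5 probe, for a subunit of the clamp loader, gave 0.98 and the mcm7 probe, for a subunit of the replicative helicase, 0.91, both with overlap. Without replicate 4 they gave 1.3 for rfc5 (adjusted p = 0.019) and 1.0 for mcm7 (adjusted p = 0.10). A further cdk1 probe gave 0.18. The cdk1 and rfc5 probes were in the dimmest of the 5 intensity groups, where probes leaned higher as a whole. Their means in vehicle larvae were -2.58 and -2.72, and 47.8% of all kept probes at -1.5 or less there were higher. The mcm7 probe was in the brightest group, with a mean of 1.41 in vehicle larvae.

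Muscle genes pointed in both directions. Of 25 probes of fast skeletal muscle contraction, 3 were higher and 1 lower, with a median of 0.19. Without replicate 4 the median was -0.12 over the 23 probes tested there, which leave out the desma probe. These 2 medians are therefore not over the same probes. With every spot 8 of 48 were higher and 1 lower, against 10.6% higher and 6.86% lower over all probes. The median there was 0.15 and became 0.20 without replicate 4. The troponin probe tnni2b.2 read -1.29, -0.91, -0.60 and -0.22 at 4500 µg/L, against 0.72, -0.09, 0.05, 0.10 and 0.12 at 500 µg/L, with a log2 fold change of -0.94 (standard error 0.27). Of the 6 cardiac probes, myh6, for the atrial myosin heavy chain, was higher by 0.74 (1.04 without replicate 4, adjusted p = 0.023), and tnnc1b, for a troponin C, lower. The tnnc1b probe read -1.54, -1.48, -1.47 and -0.79 at 4500 µg/L, against -0.40, -0.69, -0.56, -0.43 and -0.44 at 500 µg/L, without overlap, and gave -0.81 (standard error 0.23, adjusted p = 0.14).

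Genes that pattern the body and shape chromatin held large differences of both signs. Of 20 probes of Hox genes, which set position along the body axis, 4 were higher and 4 lower. The hoxc11b probe read -1.26, -1.79, -1.86 and -0.15 at 4500 µg/L, against 0.71, 0.03, -0.21, -0.27 and 0.48 at 500 µg/L, and replicate 4 was within the range at 500 µg/L. For hoxc11b the log2 fold change was -1.42 (standard error 0.34) and -1.79 without replicate 4 (adjusted p = 0.0081). The hoxd4a probe read -1.68, -0.65, -1.06 and -1.15 at 4500 µg/L, against -1.3, -3.69, -2.39, -3.46 and -2.44 at 500 µg/L, a log2 fold change of 1.52 (standard error 0.41), and further hoxd4a probes gave 0.62 and -0.17 with every spot. Chromatin modifiers had 3 of 27 probes higher and 3 lower, among them cbx8a above and ehmt2 below. The dnmt3aa probe, for a de novo DNA methyltransferase, gave 1.27 (standard error 0.43) with overlap.

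Developmental signaling genes had 2 of 39 probes higher and 4 lower, with a median of -0.17. The ctnnb2 probe, for a beta-catenin of the Wnt pathway, gave -0.91 (standard error 0.28) and -1.20 without replicate 4 (adjusted p = 0.0087), and the other 4 probes of that name lay between 0.00 and 0.31 with every spot. The tgfb2 probe, for a transforming growth factor, was higher by 0.97. In axon guidance and ephrin signaling 4 of 23 probes were higher and 2 lower. The nrp1b probe, for a receptor of semaphorins and VEGF, read -0.90, -0.94 and -1.83 on 3 arrays at 4500 µg/L, against -2.12, -2.48, -1.85, -2.72 and -2.19 at 500 µg/L, and it differed by 1.05 on the log2 scale (standard error 0.30). Integrin and actin genes had 3 of 31 probes higher and 1 lower. The parvaa probe, for a protein of focal adhesions, read -1.17, -1.20, -1.42 and -2.86 at 4500 µg/L, against -2.69, -2.81, -2.47, -2.74 and -3.25 at 500 µg/L, a difference of 1.13 on the log2 scale (1.53 without replicate 4, adjusted p = 0.0081 from limma), and a further parvaa probe gave 0.14.

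Genes of stress and of protein quality had counts on both sides. Chaperones and the unfolded protein response had 0 of 34 probes higher and 4 lower, with a median of -0.26, among them hspe1, the mitochondrial co-chaperonin, at -0.68, and calr, the calcium-binding chaperone of the endoplasmic reticulum, at -0.53. Proteasome and ubiquitin conjugation genes had 1 of 32 probes higher and 4 lower. Antioxidant genes had 2 of 16 higher and 4 lower. The mt2 probe, for a metallothionein, read 0.91, 0.20 and 0.10 at 4500 µg/L (replicates 1 to 3), against -0.59, -0.33, -0.29, -0.71 and -0.64 at 500 µg/L. It was higher by 0.91 on the log2 scale (standard error 0.27, adjusted p = 0.15), and by 0.63 with every spot, which includes replicate 4. A further mt2 probe gave 0.37 with every spot. The fthl27 probe, for a ferritin heavy-chain-like protein that stores iron, gave -1.20 (standard error 0.28), and a further probe of that name 0.15 with every spot. None of the 9 probes of xenobiotic metabolism and of the 14 of apoptosis differed at an unadjusted p under 0.05. The cyp1a probe, for the P450 that aryl hydrocarbon receptor ligands induce, gave -0.81 (standard error 0.39, adjusted p = 0.29).

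Of the organs, the liver list had 1 of 27 probes higher and 4 lower. The higher one was the complement factor c3b.2, at 1.55 (standard error 0.38). Among the lower was fga, a fibrinogen chain, at -0.70 (-0.98 without replicate 4, adjusted p = 0.017 from limma). Further fga probes gave 1.18 and -0.16 with every spot. The intestine list had 0 of 10 higher and 1 lower, the vil1 probe for villin of the brush border, at -0.92 (standard error 0.28). A further vil1 probe gave 0.97 with every spot (unadjusted p = 0.0021 from limma), so probes of 1 name differed in opposite directions. Lens crystallins had 0 of 11 higher and 2 lower, erythroid genes 0 of 15 higher and 2 lower, and photoreceptor genes 1 of 17 higher and 0 lower. The single photoreceptor probe was pde6c, a cone phosphodiesterase, at 0.80 (standard error 0.37), and it stood at -0.04 without the low-background arrays. Further pde6c probes gave between -0.35 and 0.52.

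The remaining lists are given on kept ratios, with higher and lower again meaning an unadjusted p under 0.05 from limma. In that fit no probe named in them passed the adjustment with all arrays. The share over all probes was 8.99% higher and 9.45% lower, and nothing is read from counts near it. Of 24 probes of neurons and synapses, 2 were higher and 3 lower, with a median log2 fold change of -0.12. The camk2a probe, for a kinase of synapses, read -0.04, -1.36 and -1.53 on 3 arrays at 4500 µg/L, against -1.58, -2.45, -1.65, -2.24 and -2.27 at 500 µg/L. Its values at 4500 µg/L all lay above those at 500 µg/L, and the difference was 1.06 on the log2 scale (standard error 0.35). The sncga probe, for a synuclein, was at -0.72 (standard error 0.29) with overlap. Nuclear receptors had 2 of 19 probes higher, nr3c1 among them, and 2 lower, which were nr1d1 at -0.76 and nr1d2b at -0.83, both repressors of the circadian clock.

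Cartilage, bone and matrix genes had 1 of 21 probes higher and 2 lower. The col2a1b probe, for a type II collagen, read -1.66, -1.21, -1.64 and -0.31 at 4500 µg/L, against 0.38, -0.14, -0.49, -0.48 and 0.03 at 500 µg/L. Replicates 1 to 3 lay below all arrays at 500 µg/L and replicate 4 among them, with a difference of -1.07 on the log2 scale (standard error 0.30) and of -1.36 without replicate 4 (adjusted p = 0.0087 from limma). The other lower probe was thbs4b, and the higher one fmoda, for the matrix protein fibromodulin, at 0.57.

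Splicing and RNA decay genes had 4 of 41 probes higher and 3 lower. The hnrnpc probe, for a protein bound to nuclear RNA, read -0.35, -0.04, 0.00 and -1.35 at 4500 µg/L, against -1.0, -2.08, -1.21, -2.12 and -1.74 at 500 µg/L, and replicate 4 alone lay within the range at 500 µg/L. It differed by 1.2 on the log2 scale (standard error 0.33), and by 1.5 without replicate 4 (adjusted p = 0.0087). The snrnp70 probe, for a protein of the U1 particle, gave 1.68, with values of 0.03, 2.76 and 0.76 at 4500 µg/L (replicates 1 to 3) that differed among themselves more than the groups did.

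Solute carriers had 4 of 81 probes higher and 6 lower, with a median of 0.11. Among them slc24a4a, a sodium, calcium and potassium exchanger, was higher by 1.27 on the log2 scale. For slc11a2, an iron importer, the difference was -0.95 and -1.28 without replicate 4 (adjusted p = 0.0082), where a further slc11a2 probe gave 0.30 with every spot. Epidermis and tight junction genes had 1 of 28 probes higher, cldnd, and 1 lower, icn, at -0.84. Further icn probes gave 0.85 and 0.62 with every spot. Germ cell genes had 2 of 7 higher, which were cldnd, a member of both lists, and zp2.2, an egg envelope protein, at 0.90 (standard error 0.29). Immune cell genes had 0 of 15 higher and 1 lower, coro1a, an actin-binding protein of leukocytes, at -0.77 and at -1.05 without replicate 4 (adjusted p = 0.016). Exocrine pancreas genes had 0 of 15 higher and 1 lower, the carboxypeptidase cpa5, at -0.64, and cholesterol synthesis genes 0 of 13 higher and 1 lower, hmgcs1, at -0.72 and at -1.08 without replicate 4 (adjusted p = 0.011). A further hmgcs1 probe gave -0.38 with every spot. None of the 9 endothelial probes had an unadjusted p under 0.05.

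Many of these values were smaller without the 4500 µg/L arrays of low Cy3 background, a fit in which only replicates 1 and 4 remained at 4500 µg/L. Of 75 probes followed on kept ratios in both fits, 23 had values there that were more than 1.5 times smaller than with all arrays, 1 of which, pde6c, was of opposite sign. The log2 fold changes became -0.31 for hmgcs1, -0.29 for coro1a, -0.29 for fga, -0.22 for cpa5, -0.25 for hspe1 and -0.44 for rps14. On the positive side they became 0.37 for myh6, 0.37 for mcm7, 0.62 for rfc5 and 0.78 for hnrnpc. Of the leading probes, hoxc11b came to -0.86 and gabpa to -0.72.

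**Figure D5:**
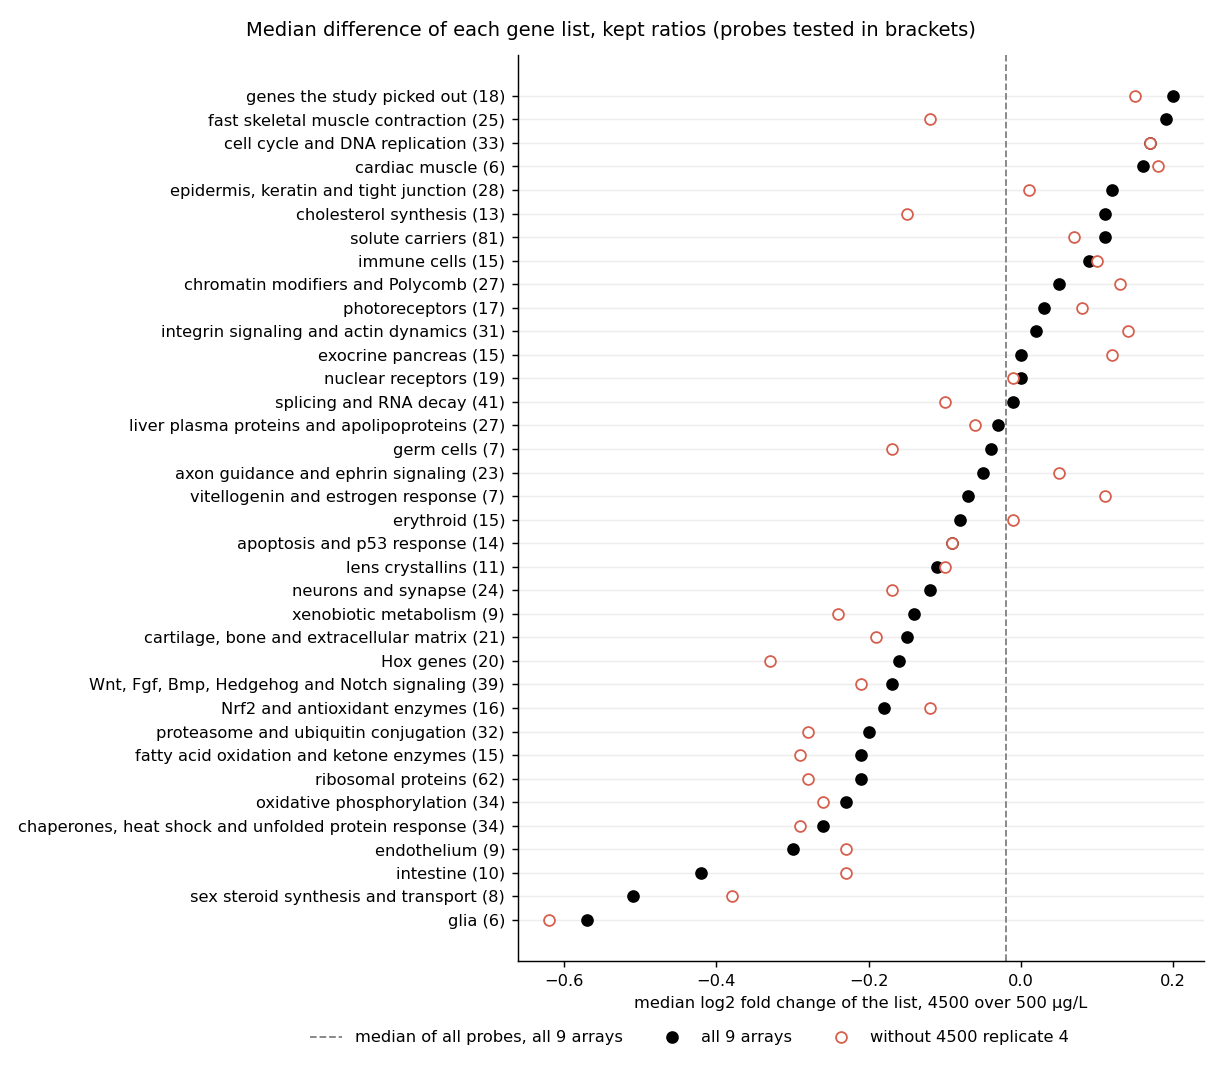
Median log2 fold change, 4500 against 500 µg/L BPA, of the probes of each gene list on kept ratios, with all 9 arrays and without replicate 4 at 4500 µg/L, beside the median over all probes (-0.02). The glia list lies lowest (-0.57 with all arrays). The cell cycle list lies at 0.17 with all arrays (33 probes) and at 0.17 without replicate 4 (29 probes tested).

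A list of genes that the study picked out from these arrays, some of which it also measured by PCR, had 18 probes on kept ratios. Of these, 2 were higher and 2 lower, near the 8.99% higher and 9.45% lower over all probes. The efnb1 probe, for an ephrin ligand, read 0.01, 0.46, 0.11 and 0.09 at 4500 µg/L, against -0.31, -0.39, -0.30, -0.16 and -0.47 at 500 µg/L. The groups did not overlap and the log2 fold change was 0.49 (standard error 0.22, adjusted p = 0.25). The myclb probe, for a Myc family factor, read 0.65, 0.63 and -0.29 at 4500 µg/L (replicates 1 to 3) and -0.94, -0.63, -0.70 and -0.27 on 4 arrays at 500 µg/L, and was higher by 0.97 on the log2 scale (standard error 0.31). With every spot the 3 myclb probes gave 0.94, 0.94 and -0.28, and the 3 camk2d2 probes, for a calcium-dependent kinase, gave -0.55, 0.14 and 0.74. The lower probes were gabpa and camk2d2 (-0.75, standard error 0.32). Besides myclb, the paper proposes sp4, apoeb and ncln among its biomarkers of BPA exposure. Their probes gave 0.21, 0.37 and 0.64 on kept ratios, with overlapping groups and no unadjusted p under 0.05 from limma. The list was chosen by the study on these arrays, so it is no independent evidence of a direction.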

How the data were processed

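The authors deposited, per array, GenePix Pro 4.0 foreground and background intensity of both channels and, for spots they had not marked as bad, the log2 of a Lowess-normalized Cy5 over Cy3 ratio. Here mean foreground and median background intensities were corrected by normexp (offset 50) and loess-normalized within arrays. Spots of one accession were averaged. Kept ratios are those of spots with a value from the authors, with at least 3 per group, and every spot uses all. limma 3.58.1 (R 4.3.3) compared both groups, with Benjamini-Hochberg adjustment over all tested probes. Single genes also got a two-sided exact permutation test over 126 regroupings. Files were read with Python 3.11.15, numpy 2.4.6, pandas 2.3.3 and scipy 1.17.1, and figures drawn with matplotlib 3.10.9. The number of arrays limits the precision.

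In simulated data with 100 probes changed by a log2 value of 1 and 100 by 2 among the 8578, 25% and 79% were called, with 10 false calls. Among 22980 probes these figures were 34%, 88% and 6, with noise independent between probes.

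Gene symbols were matched for 55 spots by accession, 3538 by current symbol and 8000 by older name, and 131 keep the annotation's name. Named are the 10 probes with a symbol highest and lowest in moderated t in either fit, the 3 members of each of 37 gene lists with the smallest p, and all vitellogenin and thyroid genes and those the study picked out, of which those that the account turns on are printed. Members and lists were chosen with earlier results of these data known. Vehicle and 1500 µg/L arrays entered only described means, the split by vehicle ratio and the fits over all 4 groups. No PCR values or sequences were used. Alternatives covered background correction, normalization, filters, tests, array weights, blocks and each array left out. A probe among the 10 highest on kept ratios is not reported here.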

Additional observations from a re-analysis of the deposited data

Results flagged for a closer look

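In 18 of the 208 groups of 4 or 5 arrays checked, over the probes named here, 1 array lay far from the others by Dixon's criterion. Chance alone would mark about 1 in 20 groups, and the probes share their arrays.

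Replicate 4 at 4500 µg/L was the distant array for sdhb (log2 ratio -0.03), tnnc1b (-0.79), hmgcs1 (0.09), rfc5 (-2.23) and parvaa (-2.86), each time on the side of the 500 µg/L arrays. Other arrays at 4500 µg/L stood apart for mpp1 (-2.04, replicate 2), and in replicate 3 for a camk2d2 probe (0.46) and a vtg5 probe (2.25).

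At 500 µg/L, replicate 2 was distant for sdhb (0.09), atp5pf (-0.34), gpx4a (-0.23), igf2b (-0.31), a slc34a2b probe (-0.81), mmp23bb (-2.35) and zgc:77880 (-2.24). Replicate 1 was distant for tnni2b.2 (0.72), replicate 3 for cbx8a (-1.01) and replicate 5 for psma6a (0.14).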

How the results depend on the processing

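Leaving out each array in turn gave 0 to 725 calls at an adjusted p under 0.05 on kept ratios and 0 to 1720 with every spot, with the highest counts without replicate 4 at 4500 µg/L. Counts at an unadjusted p under 0.05 then ran from 713 to 1938 on kept ratios and from 2818 to 6162 with every spot, and fewer probes were tested on kept ratios wherever an array was left out. With replicate numbers as a block (replicates 1 to 4), 112 probes were called on kept ratios, 98 higher and 14 lower, and 0 with every spot. Deviations of same-numbered arrays from their group means correlated at 0.08, -0.15, 0.06 and 0.07, so the numbers gave no sign of pairing. The deposited Lowess ratios gave 1 call on kept ratios. With every spot, scale normalization between arrays gave 70 calls (68 higher, 2 lower), a spread shared by all 4 groups 19 (18 higher, 1 lower), median centring 1 and limma-trend 1. Of the named probes, 10 passed with scale normalization, 9 with the replicate block, 6 with the shared spread, 1 with median centring and 1 with limma-trend. Without replicate 4 at 4500 µg/L, 70 of the named probes passed, 33 kept their side of the threshold and 1 changed sign. That array was singled out on the same ratios, so these counts are descriptions and not valid tests. The cause of these changes was not tested.

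At an unadjusted p under 0.05 on kept ratios, 853 probes differed among those with a value on all 9 arrays, 812 with a shared spread, 606 without the arrays of low Cy3 background and 433 with that background as a block. These fits tested 3930, 3878, 7556 and 3878 probes in that order, against 8578 with all arrays. They had 306 higher and 547 lower, 168 and 644, 308 and 298, and 81 and 352. With every spot, 2166 differed without those arrays and 2160 with the block. Single probes that changed sign were pde6c (0.80 with all arrays, -0.04 without the low-background arrays), vtg7 (-0.04 with all arrays, 0.03 with median centring, 0.05 with the replicate block, 0.03 with the background block, 0.00 corrected for position, and -0.12 to 0.05 with single arrays left out) and a vtg5 probe (0.34 with all arrays, -0.25 without the low-background arrays, -0.19 with the background block, and -0.23 to 0.55 with single arrays left out, lowest without replicate 3 at 4500 µg/L).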
